A study of Mus musculus with 16 samples.

Results

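The collagen genes are the 42 genes, among 19799 genes with a symbol in the deposited count table, whose symbol is Col followed by a type number, the letter a and a chain number. All 42 had enough counts to be tested, so none was lost to the filter on low counts. The study measured mRNA of pmi28, a mouse myoblast line, in 16 libraries from 2 transgenic versions of the line. The GFP line carries an inducible GFP transgene, and the msx2 line carries inducible msx2 and GFP transgenes. Msx2 is a homeodomain transcription factor. Each line was sampled as uninduced myoblasts (n = 2), as uninduced isolated myotubes (n = 3) and as induced isolated myotubes (n = 3), so every group carries a transgene. Myoblasts grew in 20% fetal bovine serum, and myotubes formed in 10% horse serum, were caught on a mesh that lets mononucleated cells through, and were replated with AraC, which kills dividing cells. Induction was 2 µg/ml doxycycline for 24 h in growth medium, in both lines, and the labels do not give the medium of the uninduced myotubes at harvest. The labels do not say whether the lines are single clones or whether replicates are separate cultures, so the p-values measure the spread between these libraries, which may be technical.

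Collagens are trimeric matrix proteins whose chains wind into a triple helix. The fibrillar collagens (types I, II, III, V, XI, XXIV and XXVII) form the banded fibres of connective tissue. Type IV forms the network of the basement membrane, the sheet around each muscle fibre, and type VI forms beaded filaments at its outer side. FACIT collagens sit on fibrils or at tissue borders, and transmembrane collagens (types XIII, XVII, XXIII and XXV) stay anchored in the cell that makes them. In muscle, types I and III are known mainly as products of interstitial fibroblasts, type XXII marks the myotendinous junction, and type XXV is made by developing muscle fibres and is needed for their innervation. The genes here fell into 11 fibrillar, 6 basement membrane network (type IV), 5 beaded filament (type VI), 9 FACIT, 4 transmembrane, 2 short-chain network (type VIII), 2 multiplexin (types XV and XVIII) and 1 anchoring fibril (type VII) genes, with 2 others (types XXVI and XXVIII).

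The library totals ran from 19772048 to 33070931 counts. Levels are in CPM, counts scaled to a common library size with edgeR's TMM factors. Msx2 stood at 1.04 to 1.43 CPM in the means of the 3 GFP groups, at 16.6 and 13.7 CPM in uninduced msx2-line myoblasts and myotubes, and at 1440.4 ± 87.1 CPM (SD over 3 libraries) once msx2-line myotubes were induced, as labelled. The summed level of 9 muscle markers was 1477 to 1495 CPM in GFP-line and 2539.7 to 2735 CPM in msx2-line myoblasts. It was 22658 to 25408 CPM in uninduced myotubes of both lines and 13749 to 15828 CPM in induced msx2-line myotubes.

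The promoters of 4 genes that the results turn on are shown here: Col25a1, the collagen with the largest rise on differentiation, and Col27a1, Col7a1 and Col17a1, which rose when msx2 was induced. Each run gives the 250 bases before the RefSeq start site (build GRCm38.p6), 5′ to 3′ on the gene's strand. Capitals mark matches on either strand to TAATTG, a core bound by homeodomain proteins, to CANNTG, the E-box of muscle bHLH factors, to the CCAAT box, to the TATA box in the form TATAAA, and to the GC box in the form GGGCGG. The Col25a1 window lies at chr3:130180595-130180844 on the plus strand, Col27a1 at chr4:63215162-63215411 plus, Col7a1 at chr9:108953336-108953585 plus and Col17a1 at chr19:47692043-47692292 minus.
Col25a1: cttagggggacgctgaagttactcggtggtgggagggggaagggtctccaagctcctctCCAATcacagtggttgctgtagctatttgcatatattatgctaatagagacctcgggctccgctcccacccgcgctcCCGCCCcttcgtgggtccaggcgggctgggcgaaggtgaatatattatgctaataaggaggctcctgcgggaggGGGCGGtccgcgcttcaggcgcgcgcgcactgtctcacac
Col27a1: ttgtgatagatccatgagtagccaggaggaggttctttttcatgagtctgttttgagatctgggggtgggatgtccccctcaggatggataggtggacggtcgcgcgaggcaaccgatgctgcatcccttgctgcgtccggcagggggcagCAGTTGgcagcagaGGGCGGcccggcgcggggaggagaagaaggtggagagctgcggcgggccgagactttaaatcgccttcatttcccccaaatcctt
Col7a1: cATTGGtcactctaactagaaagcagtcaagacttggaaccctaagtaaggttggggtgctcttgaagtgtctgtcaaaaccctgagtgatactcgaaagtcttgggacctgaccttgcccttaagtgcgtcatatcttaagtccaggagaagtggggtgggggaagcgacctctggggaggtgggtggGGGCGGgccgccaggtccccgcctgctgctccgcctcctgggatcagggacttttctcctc
Col17a1: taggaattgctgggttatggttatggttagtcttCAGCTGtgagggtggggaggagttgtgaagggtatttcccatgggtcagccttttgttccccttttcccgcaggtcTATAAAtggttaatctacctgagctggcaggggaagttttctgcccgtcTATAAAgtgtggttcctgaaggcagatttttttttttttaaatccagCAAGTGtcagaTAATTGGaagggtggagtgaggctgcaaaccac

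RefSeq windows (250 bases before to 50 after the start) were found for 33 of the 42 genes, 36 windows in all. TAATTG was in 3 of them, those of Col28a1, Col11a2 and Col17a1, or 8.33%, against 8.0% of 32851 windows of all genes. In the Col17a1 run TAATTG overlaps a CCAAT match on the other strand. The E-box was in 55.6% against 72.3%, the CCAAT box in 36.1% against 37.4%, the TATA box in 11.1% against 13.6%, and the GC box in 63.9% against 35.7%. A match describes letters in the window and is not evidence of binding.

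Collagen reads were a larger share of all counts in myoblasts than in myotubes. In the GFP line the 42 genes took 0.568% of counts in myoblasts (range 0.560 to 0.576), 0.280% in uninduced myotubes (0.265 to 0.299) and 0.301% in induced myotubes (0.296 to 0.310). In the msx2 line they took 0.724% (0.715 to 0.734), 0.321% (0.221 to 0.408) and 0.358% (0.264 to 0.490). The msx2-line myotube libraries were spread more widely than those of the GFP line, and replicate 2 was the highest in both msx2-line myotube groups. The transmembrane class went the other way, from 0.00340% in GFP-line myoblasts to 0.0362% in GFP-line myotubes, and from 0.00289% to 0.0326% in the msx2 line, then 0.0200% after induction.

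Per kilobase of transcript, Col3a1, Col5a2 and Col1a1 led in myoblasts of both lines, with 27.1%, 21.6% and 12.6% of the summed collagen CPM per kb in the GFP line and 28.1%, 18.2% and 14.1% in the msx2 line. In uninduced myotubes Col5a2 led (18.3% in the GFP line and 17.9% in the msx2 line). Col25a1, at 0.492 CPM per kb in GFP-line myoblasts, reached 43.8 CPM per kb and rank 4 in GFP-line myotubes. Induced msx2-line myotubes had 13.6 CPM per kb of Col25a1.

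**Figure D1:**
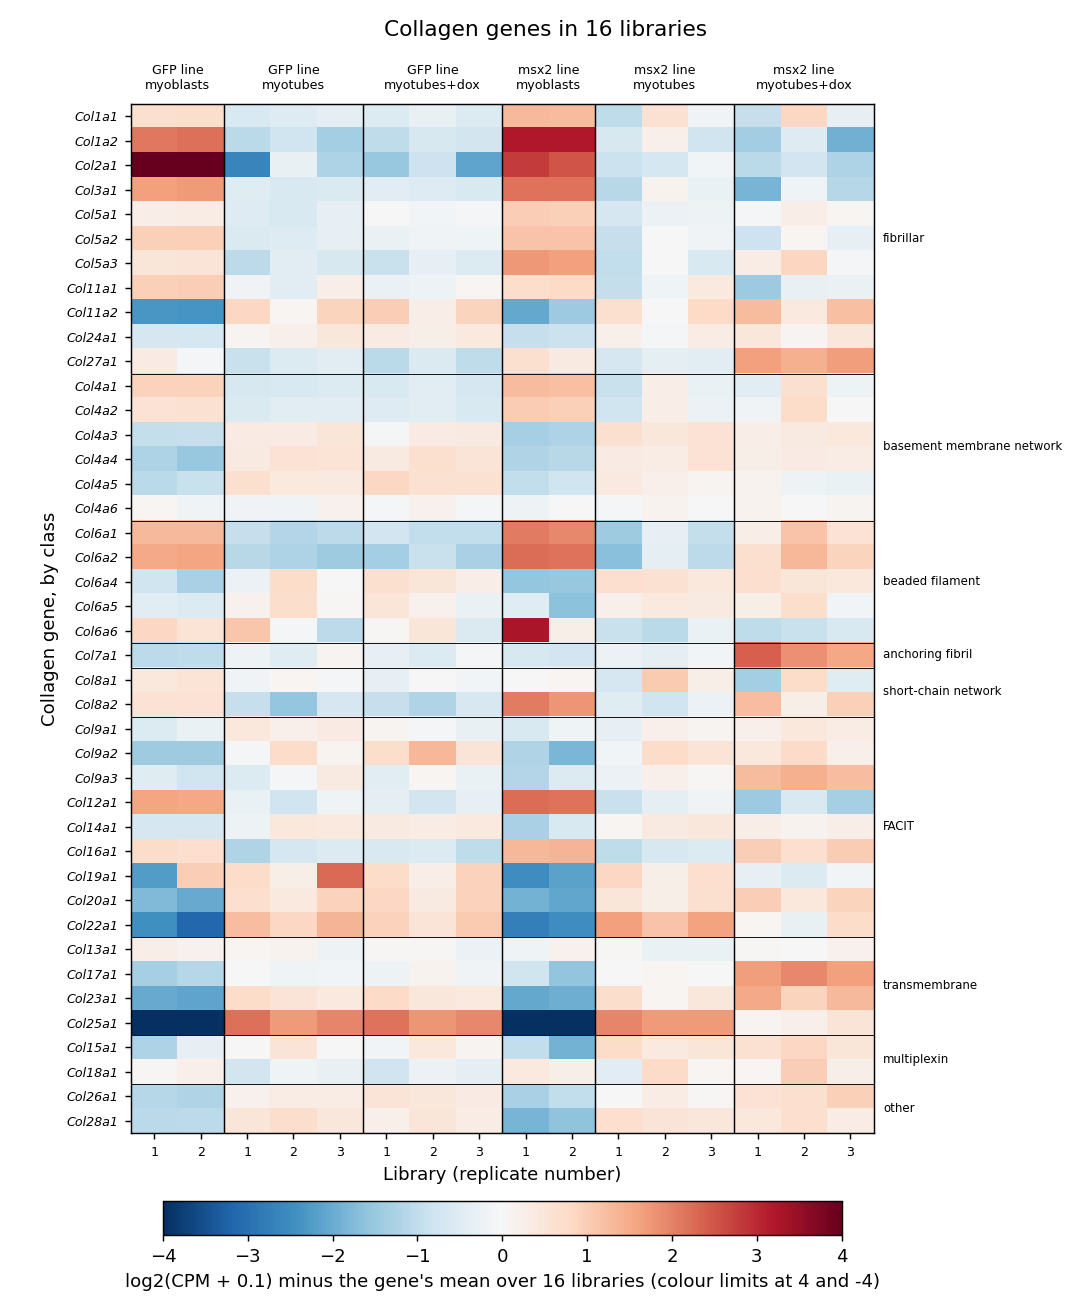
Levels of the 42 collagen genes (rows, by class) in the 16 libraries (columns, by group and replicate number), as log2(CPM + 0.1) minus the gene's mean over all libraries. Red is above and blue below the gene's mean; the fibrillar rows are mostly red in myoblasts, the Col25a1 and Col22a1 rows are blue in myoblasts, and Col27a1, Col7a1 and Col17a1 are red in induced msx2-line myotubes (labelled myotubes+dox).

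The first comparison set uninduced myotubes against myoblasts within each line, which asks how the collagen set differs between the proliferating and the fused state. Myotubes also formed in another serum, were isolated on a mesh and were replated with AraC. These steps cannot be told apart from fusion, and differences said to come with differentiation include them. The collagens split by class. Of the 11 fibrillar genes 9 were lower in myotubes and 2 were higher, in both lines, and 3 of 4 transmembrane genes were higher in both. Of the 9 FACIT genes 6 were higher in each line, 5 of them in both. Over all 42, 20 rose and 16 fell in the GFP line, and 19 rose and 17 fell in the msx2 line (edgeR quasi-likelihood test, Benjamini-Hochberg adjusted p under 0.05 over 16245 genes). Differentiation moved most genes: 77.7% of all tested genes were called in the GFP line (39.8% higher, 37.9% lower) and 79.8% in the msx2 line (40.8% higher, 39% lower), so the collagens' shares are near the background. Their median log2 difference was 0.34 against 0.06 for all genes in the GFP line, and 0.39 against 0.08 in the msx2 line. In bulk RNA, fewer cells of a type and less RNA per cell cannot be told apart.

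The chains of type I stood at very different levels. Col1a1, the α1 chain, stood at 719 and 741 CPM in GFP-line myoblasts and at 298, 323 and 349 in myotubes, and at 1128 and 1091 against 224, 699 and 417 in the msx2 line. All myotube libraries were lower, with replicate 2 of the msx2 line nearest to the myoblasts. The change was -1.18 ± 0.47 log2 (SE; adjusted p = 0.0366, edgeR) in the GFP line and -1.31 ± 0.46 (0.0216) in the msx2 line. Col1a2, the α2 chain, stood at 29.4 and 31.8 against 3.19, 3.84 and 2.59 CPM in the GFP line, and at 63.8 and 63.2 against 4.34, 7.93 and 3.89 in the msx2 line. Its groups lay far apart, by -3.26 ± 0.32 log2 (6.02e-07) and -3.55 ± 0.30 (1.28e-07). The protein is usually built from 2 α1 chains and 1 α2 chain. The ratio of Col1a1 to Col1a2 in CPM per kb was 21.5 and 15.7 in the myoblasts of the GFP and msx2 lines and 93.9 ± 24.3 and 74.2 ± 25.5 (SD, n = 3) in their uninduced myotubes.

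Col3a1, which forms type III homotrimers that co-assemble with type I, stood at 1457 and 1499.7 CPM in GFP-line myoblasts and 334, 304 and 309.8 in myotubes. In the msx2 line it was at 2078 and 2068 against 214, 514 and 383. No myotube library reached a myoblast level, and the changes were -2.23 ± 0.40 (adjusted p = 0.000265, edgeR) and -2.48 ± 0.40 log2 (0.000105). The type V chains, which set fibril width, fell as well. Col5a1 went from 498 and 506 to 291, 269 and 327 CPM in the GFP line, and from 823 and 791 to 258, 351 and 361 in the msx2 line. Col5a2 went from 1401 and 1396 to 484, 503 and 574, and from 1596 and 1603 to 379, 708 and 658. Col5a3 went from 40.6 and 41.0 to 14.0, 21.2 and 18.4, and from 95.4 and 89.9 to 14.4, 29.2 and 18.7. The log2 changes were -0.76, -1.43 and -1.18 in the GFP line and -1.32, -1.46 and -2.15 in the msx2 line, each with separate groups.

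Col2a1, best known as the cartilage fibril collagen, had one of the steepest falls. It stood at 32.1 and 30.3 CPM in GFP-line myoblasts and at 0.202, 1.44 and 0.706 in myotubes (-5.24 ± 0.35 log2, adjusted p = 4.74e-09, edgeR). The msx2-line values were 13.2 and 10.8 against 0.948, 1.07 and 1.65 CPM (-3.25 ± 0.34, 5.38e-07). The fall was smaller in the msx2 line, by 1.99 ± 0.52 log2 (adjusted p = 0.0311 for the difference between lines). Col2a1 was the 1 collagen of 42 called in that test, against 8.28% of all genes (4.01% higher, 4.27% lower). The call was lost in 8 of 21 other fits, among them without either GFP-line myoblast library (0.0936 and 0.095), without either msx2-line myoblast library (0.0804 and 0.0738), and without replicate 3 of the GFP-line (0.0709) or the msx2-line uninduced myotubes (0.106). Col11a1 and Col27a1, both also known from cartilage, fell in both lines. The fibrillar genes that rose were Col11a2, from 0.933 and 0.912 to 9.05, 5.35 and 9.53 CPM in the GFP line (3.11 and 2.29 log2 in the GFP and msx2 lines), and Col24a1 (0.96 and 1.07).

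In the basement membrane, the type IV chains divided into the major pair and the minor chains. Col4a1 and Col4a2 encode the α1 and α2 chains found in nearly all basement membranes and are neighbouring genes. Col4a1 fell from 632 and 633 to 212, 219 and 225 CPM in the GFP line and from 802 and 769 to 179, 401 and 278 in the msx2 line (-1.53 ± 0.31 and -1.46 ± 0.31 log2). Col4a2 fell from 371 and 376 to 164, 178 and 180.5, and from 499 and 475 to 143, 298 and 208 (-1.10 ± 0.27 and -1.17 ± 0.26). Myotubes and myoblasts did not overlap for either gene. The chains of the neighbouring Col4a3 and Col4a4 and of Col4a5, which assemble into another network known from kidney, were higher in myotubes. Col4a4 rose from 4.34 and 3.56 to 13.3, 15.5 and 15.2 CPM in the GFP line and from 4.37 and 4.73 to 13.0, 12.7 and 15.4 in the msx2 line (1.90 ± 0.14 and 1.59 ± 0.13). Col4a3 rose by 1.39 and 1.93 and Col4a5 by 1.46 and 1.14 log2. Col4a6, next to Col4a5 on the X chromosome, stayed between 4.77 and 6.27 CPM across these groups and passed in neither line (adjusted p = 0.993 and 0.388).

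Type VI divided in a similar way by gene. Col6a1 and Col6a2, neighbours that encode chains of the common heterotrimer, fell. Col6a1 stood at 96.5 and 97.0 CPM against 20.8, 17.5 and 19.1 in the GFP line, and at 165 and 148 against 14.4, 31.4 and 20.2 in the msx2 line (-2.34 ± 0.27 and -2.82 ± 0.27 log2). Col6a2 stood at 57.8 and 61.0 against 9.36, 8.59 and 7.50, and at 96.4 and 92.2 against 6.24, 15.7 and 9.81 (-2.82 ± 0.28 and -3.14 ± 0.27). Every myotube library lay far below the myoblasts for both genes. Col6a4 and Col6a5, at most 2.77 CPM anywhere in these groups, rose in both lines (1.38 and 2.29, 0.92 and 1.49 log2). Col6a6 was uneven between replicates, at 365 and 44.6 CPM in the msx2-line myoblasts against 20.4, 18.1 and 31.5 in the myotubes. Its call in the msx2 line (-3.13 ± 0.75, adjusted p = 0.00247, edgeR) was lost without myoblast replicate 1 (-0.94, 0.183). Col6a3 is not among the collagen genes found by symbol in the count table and is not analysed here.

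The largest rise was that of Col25a1, the transmembrane collagen of muscle. It stood at 3.22 and 3.38 CPM in GFP-line myoblasts and at 347, 246 and 289 in myotubes, and at 3.61 and 2.96 against 291, 243 and 246 in the msx2 line. The groups were separated about equally in both lines, by 6.47 ± 0.23 log2 (88.9-fold, adjusted p = 7.46e-12, edgeR) and 6.31 ± 0.23 log2 (79.1-fold, 8.78e-12). Col22a1, the FACIT of the myotendinous junction, rose from 1.73 and 1.05 to 23.9, 17.6 and 25.9 CPM and from 1.43 and 1.69 to 31.5, 21.9 and 30.4 (4.02 ± 0.38 and 4.16 ± 0.37). Col23a1 rose from 6.2 and 5.84 to 43.0, 36.8 and 33.3 CPM in the GFP line (2.64 and 2.45 in the 2 lines), and Col20a1 from 4.34 and 3.6 to 23.7, 19.4 and 28.1 (2.58 and 2.47). Among the other risers were Col28a1 (1.66 and 2.38), Col26a1 (1.46 and 1.27) and Col17a1 (1.25 and 1.32), the hemidesmosomal transmembrane collagen. The FACIT genes that fell were Col12a1, from 468 and 459.6 to 131, 90.7 and 141 CPM in the GFP line (-1.94 and -2.65), and Col16a1, from 16.1 and 15.4 to 4.15, 5.98 and 6.53 (-1.49 and -2.07). Col13a1, a collagen of the neuromuscular junction, and Col18a1 did not pass in either line.

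**Figure D2:**
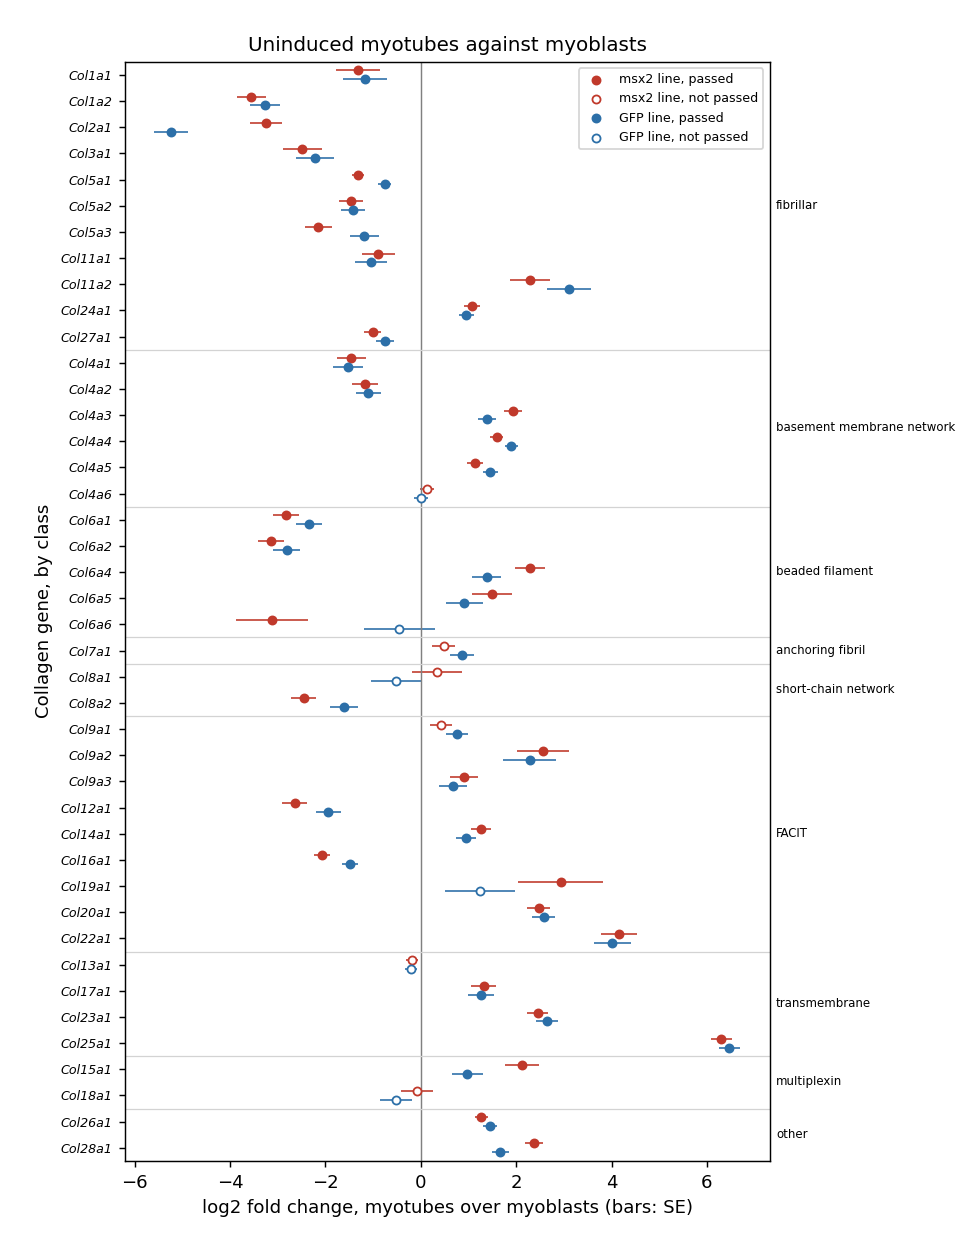
Log2 fold change of each collagen gene in uninduced myotubes over myoblasts, msx2 line in red and GFP line in blue, with SE bars; filled points passed the test. Of the 11 fibrillar genes 9 lie left of 0, and the point farthest right is Col25a1, at 6.47 in the GFP line and 6.31 in the msx2 line.

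The 2 lines gave largely the same lists. Of the 20 collagens that rose in the GFP line 18 also rose in the msx2 line (90% of that list and 94.7% of the 19 of the msx2 line, against 88.4% and 86% for all genes). Col7a1 and Col9a1 were the other two, with 0.49 and 0.43 log2 in the msx2 line. All 16 that fell in the GFP line also fell in the msx2 line (100% and 94.1%, against 90.4% and 87.9% for all genes). Of the 36 calls in each line, 29 in the GFP line and 31 in the msx2 line held in every alternative fit. Col1a1 was lost without any 1 of the 5 GFP-line libraries compared (adjusted p 0.0634 to 0.0987) and without myoblast replicate 1 (0.0539), myotube replicate 1 (0.0622) or myotube replicate 3 (0.0535) of the msx2 line. Col11a1, Col15a1, Col6a5, Col7a1, Col9a1 and Col9a3 in the GFP line, and Col11a1, Col6a5, Col6a6 and Col9a3 in the msx2 line, were also lost in at least 1 fit.

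Fibroblast markers went both ways: of 8 tested, 4 rose and 2 fell in the GFP line, and 5 rose and 2 fell in the msx2 line. The summed level of 10 such markers was 182 to 184 CPM in GFP-line and 279 to 298 CPM in msx2-line myoblasts, and 32.1 to 41.5 CPM in uninduced myotubes of both lines. Pdgfrb made up 78.8% and 87.0% of the sum in the 2 myoblast groups, and Pdgfrb and Twist2 fell with differentiation. Lum and Tcf21 were at 0 in both myoblast groups, and Dcn, Dpt, Fap, Thy1 and Pi16 were below 1 CPM there and higher in myotubes. Of 5 smooth muscle markers 4 fell in the GFP line and all 5 in the msx2 line, the summed level going from 3269 to 5292 CPM in myoblasts to 1114 to 1616 CPM in uninduced myotubes. Of 5 chondrocyte markers Sox9 and Hapln1 fell and Comp and Acan rose in both lines, the sum going from 49.3 to 55.9 CPM in myoblasts to 28.8 to 34.1 CPM in uninduced myotubes. Of 6 endothelium markers 4 rose in each line (14.6 to 16.4 CPM in sum, then 32.7 to 38.2), and of 4 leukocyte markers 3 rose in the GFP line and 2 in the msx2 line (1.03 to 1.36 CPM, then 2.83 to 4.55). These counts stand beside 77.7% of all tested genes called in the GFP line and 79.8% in the msx2 line. The part of these cell types in the collagen differences was not tested.

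The second comparison set induced against uninduced myotubes in the msx2 line, which asks which collagens respond to msx2 with doxycycline and growth medium, and the GFP line shows what the treatment does without msx2. In the msx2 line 12 collagens rose, 2 fell and 28 did not pass (edgeR, adjusted p under 0.05), against 32.5% of all genes called (16.2% higher and 16.3% lower). Their median log2 difference was 0.11 against -0.01 for all genes. Risers came from the type VI pair, 2 type V chains, and single genes of other classes, including the epithelial anchoring collagens Col7a1 and Col17a1. The fallers were Col25a1 and Col22a1, both among the genes that rose most with differentiation. In the GFP line no collagen was called, 2 had an unadjusted p under 0.05, and DESeq2 called 0; 0.0308% of all genes were called there.

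Col27a1, a fibrillar collagen known from cartilage, stood at 2.45, 3.02 and 2.96 CPM in uninduced and at 12.7, 10.9 and 12.9 in induced msx2-line myotubes. The GFP line had 2.12, 2.73 and 2.91 before and 1.84, 2.65 and 1.95 after treatment. Only the induced msx2 libraries exceeded the 5.18 and 6.24 CPM of msx2-line myoblasts. The rise was 2.11 ± 0.16 log2 (adjusted p = 8.9e-08, edgeR) and exceeded that of the GFP line by 2.39 ± 0.24 (7.74e-06). Col7a1, the chain of the anchoring fibrils under the epidermis, went from 10.5, 9.39 and 11.6 to 64.9, 44.3 and 36.3 CPM. In the GFP line it was at 10.7, 8.89 and 13.4 and then at 9.92, 8.41 and 11.8. Its rise of 2.20 ± 0.20 (1.29e-06) took it above every other group, where the highest library had 13.4 CPM. Col17a1 went from 1.30, 1.39 and 1.34 to 4.39, 5.24 and 4.31 CPM (1.79 ± 0.17, 8.6e-07), with 1.13 to 1.47 CPM across both sets of GFP-line myotubes.

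Type VI rose as a pair. Col6a1 went from 14.4, 31.4 and 20.2 to 47.0, 86.6 and 59.0 CPM (1.54 ± 0.25 log2, adjusted p = 4e-04, edgeR) and Col6a2 from 6.24, 15.7 and 9.81 to 31.9, 50.7 and 37.6 (1.90 ± 0.26, 7.92e-05). Replicate 2 was highest in both groups for both genes, and the groups did not overlap. The GFP line stayed at 17.5 to 22.9 CPM of Col6a1 and 7.50 to 11.0 CPM of Col6a2. Induced levels remained below those of msx2-line myoblasts, 165 and 148 CPM for Col6a1 and 96.4 and 92.2 CPM for Col6a2. The other type VI genes did not pass.

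Of the FACIT genes, Col16a1 went from 4.74, 6.12 and 6.48 to 19.3, 15.2 and 19.4 CPM (1.62 ± 0.16, adjusted p = 1.32e-06, edgeR), near the 24.3 and 24.7 CPM of the myoblasts. Col9a3, a cartilage FACIT chain, went from 1.45, 1.99 and 1.77 to 4.31, 4.76 and 4.20 (1.33 ± 0.21, 0.000158), whereas its partner chains Col9a1 and Col9a2 did not pass. Col8a2, a network collagen of vessel wall and cornea, went from 3.84, 3.06 and 4.55 to 12.8, 6.34 and 10.6 (1.37 ± 0.25, 0.00075). Col23a1 rose by 0.82 ± 0.17 and Col26a1 by 0.61 ± 0.11.

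Of the 3 type V chains 2 rose, by less, and neither rise was called as different from that of the GFP line. Col5a1 went from 258, 351 and 361 to 387, 499 and 437 CPM (0.45 ± 0.11, adjusted p = 0.00702, edgeR), and in the GFP line from 291, 269 and 327 to 404, 385 and 391 (0.41 ± 0.11, adjusted p of 1). All induced libraries were above all uninduced ones in both lines, and the rises differed by 0.04 ± 0.16 (0.922). The Col5a1 call was lost with a correction for GC content (0.16, 0.282) and in a fit of the compared groups alone (0.0563). Col5a3 went from 14.4, 29.2 and 18.7 to 35.7, 52.5 and 27.6 CPM with overlapping groups (0.89 ± 0.27, 0.0226). Its call was lost without induced replicate 2 (0.60, 0.0978), uninduced replicate 1 (0.69, 0.0845) or uninduced replicate 3 (0.81, 0.0794), with the GC correction (0.104) and in the compared groups alone (0.0872). Its rise exceeded that of the GFP line by 0.77 ± 0.39 without passing (0.21). Col5a2 changed by -0.01 ± 0.22 (0.989). The other 10 risers and both fallers held in all 17 alternative fits.

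Col25a1 fell from 291, 243 and 246 to 81.1, 85.6 and 106 CPM (-1.51 ± 0.14, adjusted p = 1.64e-06, edgeR), while the GFP line kept 347, 246 and 289 before and 342, 255 and 288 after treatment. The induced msx2-line level was still far above the myoblasts' 3.61 and 2.96 CPM. Col22a1 fell from 31.5, 21.9 and 30.4 to 10.6, 8.11 and 16.7 (-1.24 ± 0.25, 0.00156), and from 23.9, 17.6 and 25.9 to 19, 14.4 and 20.8 in the GFP line without passing. The fall in the msx2 line exceeded that in the GFP line by 0.92 ± 0.34 log2 without passing (0.0869), and passed with the replicate number as a block (0.95, 0.000527).

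The chains of types I, III and IV gave no call in the main fit. Col1a1 stood at 224, 699 and 417 CPM before and 241, 815 and 365 after induction (0.08 ± 0.42, adjusted p = 0.904, edgeR). Col3a1 stood at 214, 514 and 383 and then at 128, 415 and 209 (-0.56 ± 0.36, 0.269). Replicate 2 was the highest of each of these groups, and without induced replicate 2 the Col3a1 change was -1.13 (0.0121). Without replicate 2 of both groups it was -0.82 (0.0348). Col1a2 stood at 4.34, 7.93 and 3.89 and then at 2.54, 4.69 and 1.71 (-0.87 ± 0.33, 0.0578). Same-numbered libraries of the 2 myotube groups deviated together, and with the number as a block Col1a2 passed (-0.88, 0.00797), as did Col4a5 (-0.34, 0.0236), Col11a2 (0.48, 0.0204) and Col20a1 (0.33, 0.00259). The block gave 14 higher and 4 lower calls in place of 12 and 2. Col4a1 and Col4a2 changed by 0.28 ± 0.28 (0.497) and 0.44 ± 0.24 (0.188), with replicate 2 at the top of each group. Col4a2 passed without uninduced replicate 2 (0.75, 0.0251) and, with a smaller change, without replicate 2 of both groups (0.43, 0.0229).

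**Figure D3:**
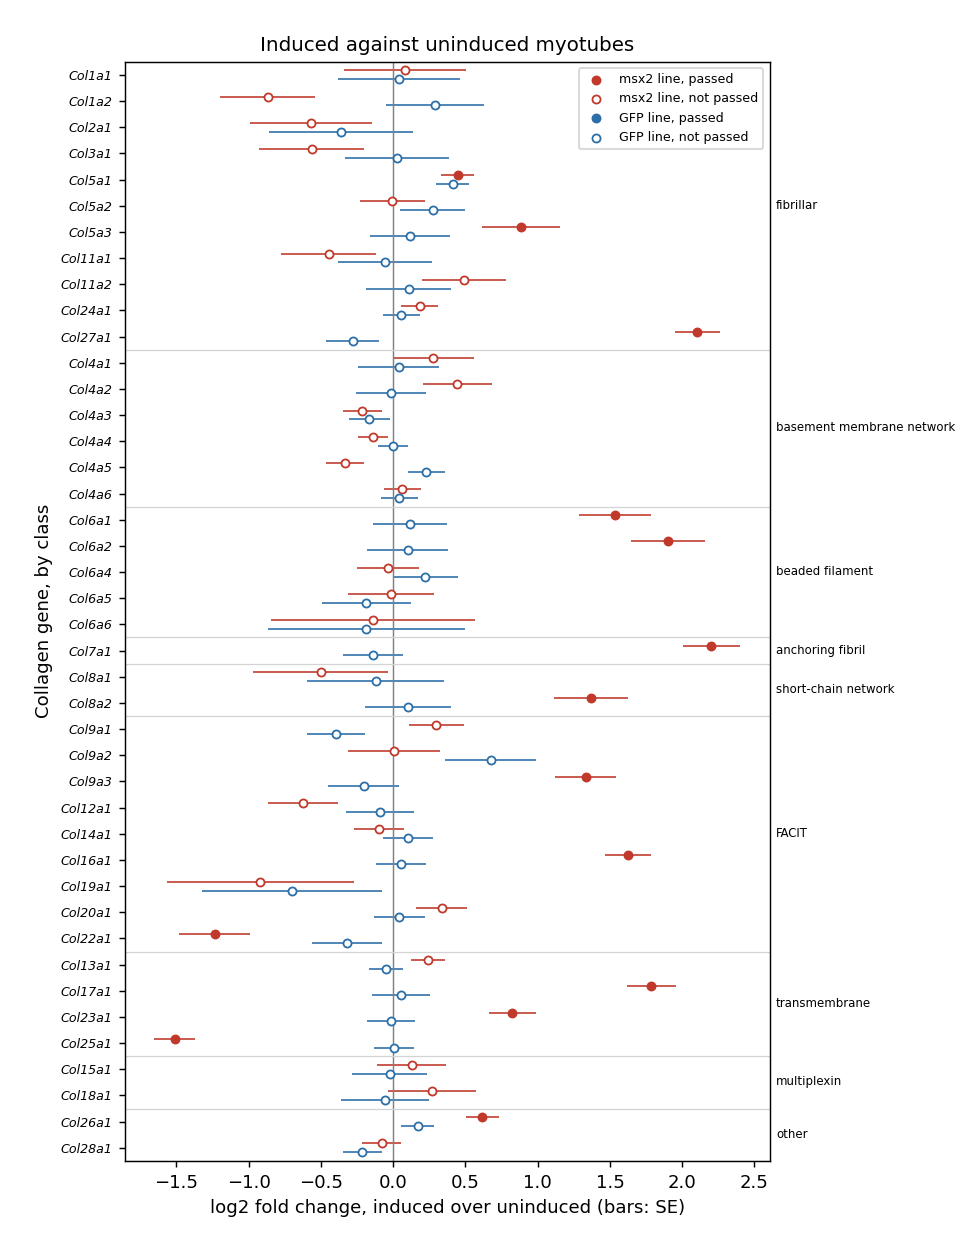
Log2 fold change of each collagen gene in induced over uninduced myotubes, msx2 line in red and GFP line in blue, with SE bars; filled points passed the test. The 12 filled points on the right run from 0.45 (Col5a1) to 2.20 (Col7a1), the 2 on the left are Col25a1 and Col22a1, and no GFP-line point is filled.

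**Figure D4:**
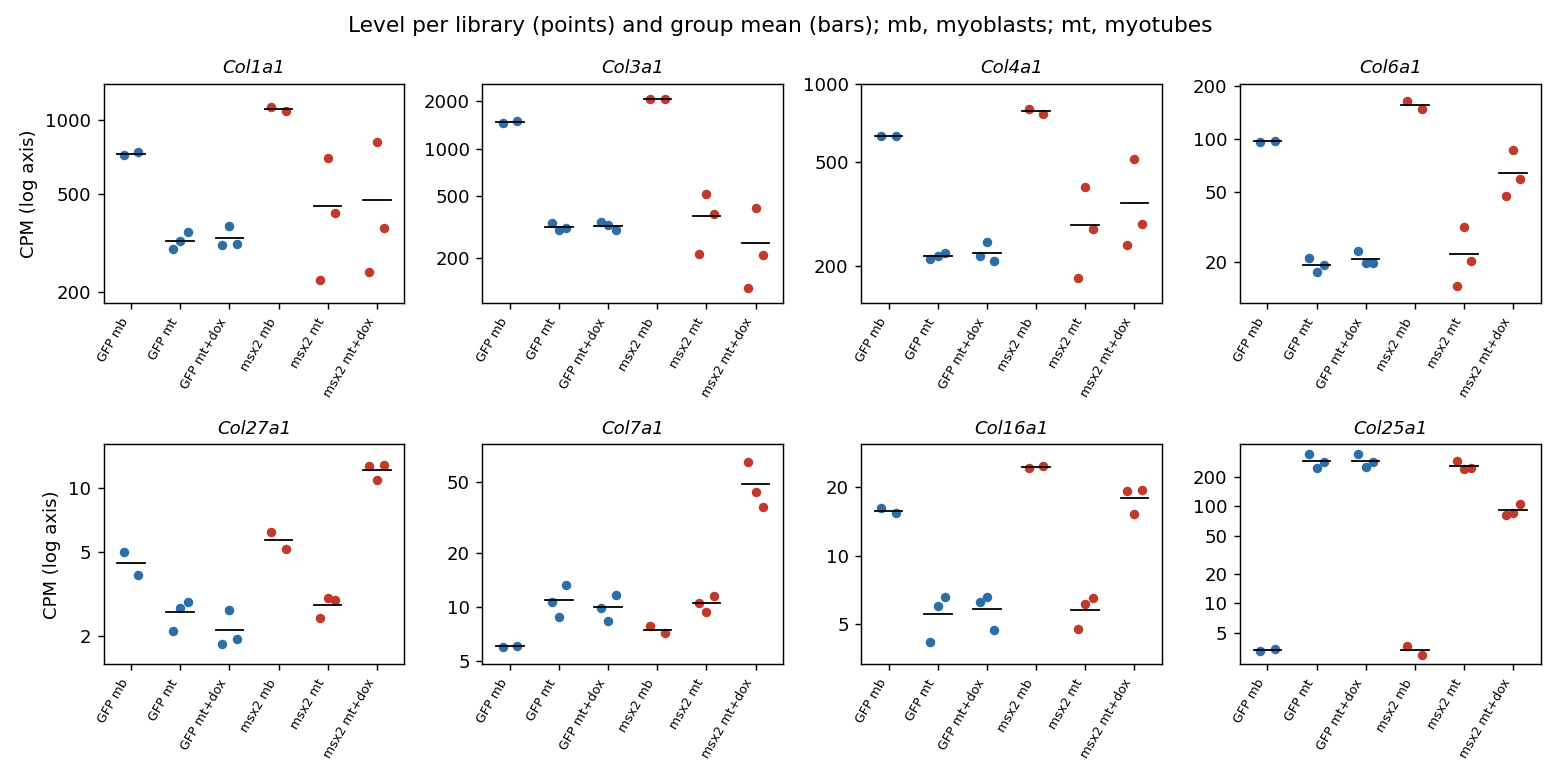
Level in CPM (log axis) of 8 collagen genes in every library (points) with the group mean (bars), GFP line in blue and msx2 line in red, for myoblasts (mb), uninduced myotubes (mt) and induced myotubes (mt+dox). The means of Col1a1, Col3a1, Col4a1 and Col6a1 are highest in myoblasts; Col27a1 and Col7a1 are highest in induced msx2-line myotubes, and Col25a1 is lowest in myoblasts.

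The test of the difference between the lines' responses called 9 collagens with a higher and 2 with a lower log2 change in the msx2 line. Of all genes 17.9% were called (9.15% higher and 8.78% lower). Those 9 were Col27a1, Col7a1, Col16a1, Col17a1, Col9a3, Col6a2, Col6a1, Col23a1 and Col8a2. The 2 were Col25a1 and Col4a5, the latter at 8.23, 7.15 and 6.69 and then 6.85, 5.39 and 5.23 CPM in the msx2 line against 9.81, 8.15 and 8.06 and then 11.2, 9.58 and 9.58 in the GFP line. Of the 11 calls, 8 held in all 23 alternative fits. Col23a1 was lost in several edgeR fits that leave out 1 library (adjusted p 0.0533 to 0.0587). Col8a2 (0.0652 to 0.128) and Col4a5 (0.0565 to 0.115) were lost in most of them. The GC correction ended the calls of Col23a1 (0.106) and Col8a2 (0.107). The compared groups alone ended those of Col8a2 (0.0594) and Col4a5 (0.0666), and the length offset (0.0533) or no filter (0.0564) that of Col4a5. With the block 10 were higher and 4 lower, adding Col26a1 (0.0447), Col1a2 (0.0232) and Col22a1 (0.000527).

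Of the 12 risers, 7 had fallen and 5 had risen with differentiation in the GFP line, which shares no library with this comparison (58.3% and 41.7%, against 38.9% and 39.8% of all genes that rose on induction). The 7 were Col16a1, Col27a1, Col5a1, Col5a3, Col6a1, Col6a2 and Col8a2. Both fallers had risen with differentiation there, as had 47.9% of all genes that fell on induction.

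Ratios between partner chains, per kb, were set against induction in 12 tests, where an exact two-sided permutation test of 3 against 3 cannot go below p = 0.1. In the msx2 line, Col6a1 to Col6a2 went from 2.41 ± 0.19 to 1.80 ± 0.13 (SD, n = 3; exact p = 0.1, adjusted 0.343) and Col4a1 to Col4a2 from 1.28 ± 0.05 to 1.13 ± 0.09 (exact p = 0.1, adjusted 0.343). Col3a1 to Col1a1 went from 0.926 ± 0.125 to 0.572 ± 0.034 (exact p = 0.1, adjusted 0.343). These 3 ratios had no overlap between groups in the msx2 line, but no test passed. The ratio of Col1a1 to Col1a2 went from 74.2 ± 25.5 to 145 ± 54.5 (exact p = 0.2, adjusted 0.343), and that of Col5a1 to Col5a2 from 0.453 ± 0.075 to 0.624 ± 0.121 (exact p = 0.2, adjusted 0.343). These groups overlapped, but the same-numbered libraries, which deviated together, differed the same way. Col1a1 to Col1a2 went from 46.5 to 85.7, from 79.5 to 156.9 and from 96.6 to 192.8 in replicates 1, 2 and 3. Col5a1 to Col5a2 went from 0.537 to 0.753, from 0.391 to 0.514 and from 0.433 to 0.605. All 3 pairs were also lower after induction for Col6a1 to Col6a2, Col4a1 to Col4a2 and Col3a1 to Col1a1 in the msx2 line. An exact paired permutation test, two-sided, gave p = 0.25 for each of these 5 ratios, the smallest that 3 pairs allow (adjusted 0.429 over the 12 tests). The rise of Col5a1 to Col5a2 was not limited to the msx2 line. All 3 GFP-line pairs were also higher after treatment, by 0.14 log2 on average against 0.46 in the msx2 line. Col4a3 to Col4a4 was lower in all 3 GFP-line pairs (-0.17 log2). For both GFP-line ratios the exact paired permutation test, two-sided, gave p = 0.25 (adjusted 0.429). The other GFP-line ratios went both ways between pairs.

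With induction the fibroblast marker sum was 65.5 to 85.8 CPM against 32.1 to 41.2 in uninduced msx2-line myotubes and 34.6 to 47.5 in induced GFP-line myotubes. Pdgfrb and Pi16 rose (1.66 and 1.19 log2), 6 of the 8 tested markers did not pass, and Dpt, Thy1, Lum, Tcf21 and Fap were below 1 CPM on average. Of the 5 chondrocyte markers Sox9 (1.35) and Comp (1.72) rose and Hapln1 fell (-0.23), the sum going from 28.8 to 31.7 CPM to 54.0 to 63.3 CPM. Of 4 leukocyte markers 1 rose, the sum going from 3.49 to 4.55 CPM to 9.75 to 10.0 CPM. Of 9 muscle markers 1 rose and 5 fell, the sum going from 22658 to 24104 CPM to 13749 to 15828 CPM. Of 5 smooth muscle markers Smtn rose (0.74) and Acta2 fell (-1.26), the sum going from 1179 to 1616 CPM to 566 to 1138 CPM. The 6 endothelium markers summed to 32.7 to 38.2 CPM before and 32.6 to 34.8 CPM after induction. These counts stand beside 32.5% of all tested genes called on msx2 induction (16.2% higher and 16.3% lower). The part of such cell types in the collagen changes was not tested.

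The third comparison set the lines against each other without induction. In uninduced myotubes no collagen was called by edgeR (1 with an unadjusted p under 0.05, 0 by DESeq2), against 0.0616% of all genes (0.00616% higher, 0.0554% lower). In myoblasts 5 were higher and 1 lower in the msx2 line, against 16.3% of all genes (9.09% higher, 7.24% lower). A fit of the compared groups alone called 13 higher and 4 lower. Col8a2 stood at 23.4 and 18.8 CPM against 8.12 and 8.12 in the GFP line (1.38 ± 0.29, adjusted p = 0.0058, edgeR), Col5a1 at 823 and 791 against 498 and 506 (0.69 ± 0.14, 0.00434) and Col5a3 at 95.4 and 89.9 against 40.6 and 41.0 (1.18 ± 0.32, 0.0258). Col1a2 stood at 63.8 and 63.2 against 29.4 and 31.8 (1.05 ± 0.31, 0.0344) and Col16a1 at 24.3 and 24.7 against 16.1 and 15.4 (0.63 ± 0.18, 0.0282). Col2a1 was lower, as given above (-1.38 ± 0.31, 0.00841). The libraries of the lines did not overlap for any of the 6, but with 2 libraries a group this was common among the collagens. Over all 42 collagens, 18 had both msx2-line libraries higher and 7 had both lower. The share of all tested genes that separated this way was not counted. With 2 libraries a group none of the 6 calls held in every alternative. Without any 1 of the 4 libraries Col1a2 (0.0933 to 0.173), Col16a1 (0.0931 to 0.17), Col2a1 (0.0553 to 0.0635) and Col5a3 (0.0599 to 0.141) were lost. Col8a2 was lost without either GFP-line library or msx2-line replicate 1 (0.0514 to 0.0711), and Col5a1 with the GC correction (0.0661), which left 1 higher and 1 lower.

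Of 30 genes that make and process collagen 20 fell and 7 rose with differentiation in the GFP line, and 20 fell and 6 rose in the msx2 line, against 77.7% and 79.8% of all genes called in the 2 lines. The medians were -0.68 and -0.99 log2, against 0.06 and 0.08 for all genes. Serpinh1, the procollagen chaperone Hsp47, went from a mean of 998 to 305 CPM in the GFP line (-1.71) and from 1296 to 304 in the msx2 line (-2.09). Creb3l1, a transcription factor of collagen-secreting cells, fell by 3.06 and 3.6 log2, and Pcolce, which enhances removal of the C-propeptide, by 2.30 and 2.22. Tmem38b, an endoplasmic reticulum cation channel needed for collagen assembly in bone, rose by 3.04 and 2.76, and Tll2 and P4ha2 rose too. With msx2 induction 5 rose and 7 fell, against 32.5% of all genes called, with a median of -0.05 against -0.01. Serpinh1 (0.46), Pcolce (0.66) and Plod1 (0.44) rose, and the hydroxylases Plod2 (-1.11) and P4ha1 (-0.56), Tmem38b (-0.91) and Fkbp10 (-0.55) fell. In the GFP line none of the 30 was called after treatment.

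Of 11 collagen receptors 5 rose and 4 fell with differentiation in the GFP line, and 4 rose and 5 fell in the msx2 line, near the 77.7% and 79.8% of all genes called. Their medians were 0.16 and -0.24 log2. With msx2 induction 3 rose and 1 fell, against 32.5% of all genes called, with a median of 0.05. Itgb1, the shared β1 integrin chain, rose by 0.70 and 0.98 log2 and fell by 0.70 with msx2 induction. Gpr56, a receptor for type III collagen, fell by 2.15 and 2.14 with differentiation. It rose by 2.83 on induction in the msx2 line and by 1.78 in the GFP line (adjusted p = 0.000652, edgeR), where it was 1 of the 5 genes called in all. Itga10 and Itga11, chains of collagen-binding integrins, rose by 1.01 and 0.66 with msx2 induction.

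Of 13 tested fibril-associated matrix genes 3 rose and 6 fell in the GFP line and 4 rose and 6 fell in the msx2 line with differentiation, near the 77.7% and 79.8% of all genes called. Their medians were 0.19 and 0.08 log2. With msx2 induction 3 rose and 1 fell, against 32.5% of all genes called, with a median of 0.20. Fmod, a small proteoglycan of fibrils, went from 7.62 to 0.569 CPM on average in the GFP line (-3.71) and from 28.7 to 0.799 in the msx2 line (-5.14). Of these, Fmod (1.22), Comp (1.72) and Tnxb (1.68) rose, from means of 0.799, 1.34 and 1.20 to 1.89, 4.45 and 3.81 CPM, and Thbs1 fell (-0.61). None was called in the GFP line after treatment.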

How the data were processed

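RNA was measured in 16 libraries made with a stranded mRNA kit (500 ng RNA, 12 PCR cycles, per the labels' protocols). The authors deposited raw counts per gene. TopHat2 2.0.11, SAMtools 0.1.19, edgeR 3.6.8 and mm9 stand in the submitters' processing notes; the counting tool is not given in the sources used here. Not used were 67 entries that name no gene, which hold 0.0601 to 0.0878% of each library's counts. Genes were filtered (filterByExpr, minimum count 10), scaled by TMM and tested over all 16 libraries with edgeR 4.0.16 (R 4.3.3, robust quasi-likelihood, 8 comparisons, Benjamini-Hochberg, threshold 0.05), and the script was tested on simulated data. Genes were named as types I, III, IV, V and VI, up to 5 per direction and comparison by adjusted p, and up to 3 per direction for the other lists. Further collagens, list genes and calls gained or lost in alternatives were named after their values were seen. The members and lists were chosen with earlier results of these data known. Lengths (GENCODE M21, GRCm38) and promoters (RefSeq, GRCm38.p6) come from another build than the files, so no coordinates were joined.

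The libraries' replicate numbers come from the labels. Same-numbered uninduced and induced myotubes deviated together, so the numbers appear to pair these libraries, though the labels do not say so. Their correlation over genes was 0.394, 0.508 and 0.207 in the msx2 line and 0.359, 0.414 and 0.453 in the GFP line. The main fit left this pairing out, and fits with the replicate number as a block are given beside it. Myoblasts and uninduced myotubes of one number did not deviate together (between -0.0103 and 0.0113). The GFP-line myoblast libraries differed least (chi-square per degree of freedom 1.95, against 10.5 to 31.3 in the other pairs), still above sampling noise, and were kept as 2.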

Additional observations from a re-analysis of the deposited data

Results flagged for a closer look

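Of the 42 collagens, 12 results differed between the lines by the interaction test of edgeR's quasi-likelihood model. On differentiation, Col2a1 fell less in the msx2 line than in the GFP line, by 1.99 ± 0.52 log2 (SE; adjusted p = 0.0311), starting from a lower level in myoblasts. On induction, the response of the msx2 line exceeded that of the GFP line by 2.39 log2 for Col27a1 (7.74e-06), 2.34 for Col7a1 (6.3e-05), 1.80 for Col6a2 (0.00483), 1.73 for Col17a1 (0.000243), 1.57 for Col16a1 (0.000212), 1.54 for Col9a3 (0.00322), 1.42 for Col6a1 (0.0148), 1.27 for Col8a2 (0.0375) and 0.84 for Col23a1 (0.0229). The log2 change in the msx2 line was lower than that in the GFP line for Col25a1 (-1.52, 9.39e-05) and Col4a5 (-0.56, 0.0463). The calls of Col2a1, Col23a1, Col8a2 and Col4a5 were lost in several other fits, as given above. All 3 induced msx2-line libraries lay outside the uninduced ones for the 9 genes with a higher change and for Col25a1. As the test that picked these genes used the same libraries, this is no separate support. Over all 42 collagens, 11 had all induced msx2-line libraries higher and 4 had all lower. How many of all tested genes separated in this way was not counted, so these counts have no background. No group holds 4 or more libraries, so no library was tested as an outlier.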

How the results depend on the processing

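Scaling, filters, offsets for GC content or length, DESeq2, the replicate block and leaving out libraries were tried. No call turned its direction. On differentiation of the GFP line the median of all genes was 0.06 log2, -0.16 with either offset, 0.14 with no filter and 0.18 with DESeq2, which was also run without the filter. With at least 5 CPM in 3 libraries, 12 collagens in place of 20 rose in the GFP line, since fewer genes were tested, and 2 in place of 1 were lower in msx2-line myoblasts. On msx2 induction 4 in place of 2 fell with the replicate block, the GC offset, both together, DESeq2 or a replicate block within each line, and 5 without both msx2-line myotube libraries numbered 2. Collagens with a lower log2 change on induction in the msx2 line than in the GFP line numbered 2 as reported. They numbered 1 with no filter, the length offset or the compared groups alone. With the replicate block alone, with the GC offset or within line, or with DESeq2, they numbered 4. For differentiation between lines, the 1 higher collagen became 0 in the compared groups alone and with the block within line. There, 2 were lower with the block, 1 with DESeq2 or the block within line, and 3 without both libraries numbered 2. In myoblasts, 13 were higher and 4 lower in the compared groups alone, 1 higher with the GC offset, and 2 lower with the replicate block or DESeq2. The block within line, the removal of both libraries and the paired test of the chain ratios were chosen after seeing the data. Without each library in turn, the counts ranged from 0 to 1 higher and 0 to 1 lower (differentiation between lines), 1 to 3 higher and 0 to 1 lower (myoblasts), 2 to 6 lower (msx2 induction) and 1 to 2 lower (induction between lines). The causes were not tested. The replicate block ended no main call in the msx2 induction comparison. Genes near 1 CPM, such as Col9a2 with as few as 2 counts, are limited by depth. Over the genes named by the rule in each comparison, 2653 results in other fits kept their side of the threshold, 73 lost it and 41 gained it. Over all 42 genes, 115 calls were lost and 86 gained.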

Other observations

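Some collagens had single libraries far from the others of their group. Col19a1, a FACIT gene, stood at 3.69 and 35.0 CPM in the 2 GFP-line myoblast libraries and at 29.7, 20.9 and 85.4 CPM in the GFP-line uninduced myotubes, but at 3.12 and 3.95 CPM in msx2-line myoblasts and 12.2 to 16.4 CPM in induced msx2-line myotubes. Col6a6, a type VI gene, stood at 365 and 44.6 CPM in msx2-line myoblasts and at 81.8, 35.9 and 18.2 CPM in GFP-line uninduced myotubes. Col8a1, a short-chain collagen, stood at 28.5, 94.4 and 53.5 CPM before and 17.4, 75.1 and 32.4 CPM after induction in the msx2 line, with replicate 2 highest both times, and at 36.0 to 48.0 CPM in all GFP-line myotubes. The collagen genes were longer and richer in GC than the tested genes, with a median transcript length of 5989 against 3049 bases and a median GC content of 55.9% against 49.9%.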
